A study of Homo sapiens and Mus musculus with 20 samples.

Results

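Lysine acetyltransferases attach acetyl groups, taken from acetyl-CoA, to lysines of histones and other proteins. The 10 genes described here encode the main nuclear enzymes of this kind: EP300 (p300) and its paralogue CREBBP (CBP), KAT2A (GCN5) and KAT2B (PCAF), the MYST enzymes KAT5 (TIP60), KAT6A (MOZ), KAT6B (MORF), KAT7 (HBO1) and KAT8 (MOF), and HAT1, which acetylates newly made histone H4. They were chosen by symbol, and all 10 were listed in each of the 3 IMR90 tables, which held 17554 genes in any and 11994 in all of them. p300 and CBP are coactivators that carry acetyl groups to enhancers and promoters, and KAT2A and KAT2B work within the SAGA and ATAC coactivator complexes. The MYST enzymes sit on scaffold proteins, some of them shared between KAT6A, KAT6B and KAT7. p300 is also the enzyme to which the study assigns histone lactylation, the transfer of a lactyl group to lysine, and this is the question behind measuring these cells.

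Bulk RNA sequencing was analysed in 12 of the 20 libraries of the series, all from IMR90, a human fetal lung fibroblast line labelled wild type. A485, a catalytic inhibitor of p300 and CBP, was compared with Control2. MS-275 blocks class I histone deacetylases, the enzymes that take acetyl groups off again, and was compared with Control3. Pyruvate, which cells convert to lactate or to acetyl-CoA, was compared with Control6. Each group held 2 libraries, and the controls were untreated. The study's text describes the pyruvate experiment as made in senescent cells, a state of lasting arrest that the labels do not record. All libraries came from a single cell line, and nothing states that the replicates were separate cultures, so the p-values measure the spread between these libraries. RNA levels do not measure the activity of an enzyme.

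Values are normalised read counts, that is, read counts per gene divided by the size factor of the library. Summed over listed genes, depth ran from 24179065 to 46971227 reads a library. All 10 fibroblast markers tested, among them COL1A1 and VIM, were above 100 in every library. Of 10 markers of epithelial, endothelial and blood cells, at most 3 were listed in any experiment (EPCAM, VWF and LYZ), and together they took at most 0.000654% of a library. The libraries of replicate 2 in the MS-275 experiment stood apart from those of replicate 1. Their log2 values were lower for long transcripts and higher for short ones, both in Control3 (Spearman rho with transcript length -0.59 over 11494 genes) and after MS-275 (rho -0.57). The difference also rose with the GC content of the transcript (rho 0.43 in Control3 and 0.52 after MS-275). Among the members, EP300 and CREBBP differ most between these numbers, so the members are also compared within each replicate number. The log2 fold changes called pooled, the list medians and the contrasts with other experiments take both numbers together.

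**Figure D1:**
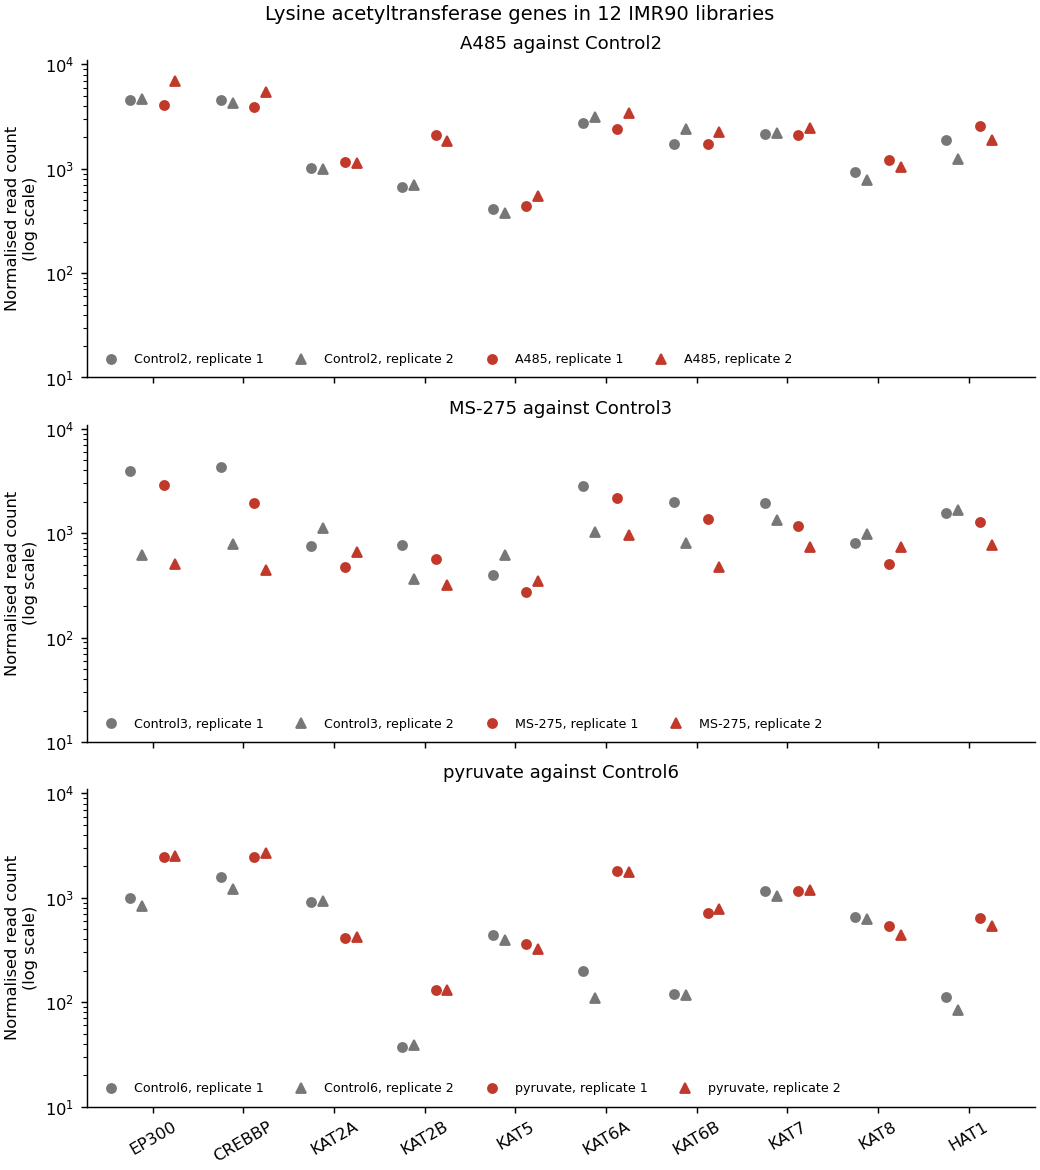
Normalised read count (log scale) of the 10 lysine acetyltransferase genes in each of the 12 IMR90 libraries, with controls in grey, treated libraries in red, replicate 1 as circles and replicate 2 as triangles. KAT2B separates the groups most clearly after A485, all 10 genes are lower after MS-275 within each symbol, and KAT6A, KAT6B and HAT1 show the widest separation after pyruvate.

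The members differ in length and base composition. In the GENCODE annotation of hg38, EP300 lies on the plus strand of chromosome 22 from 41092592 to 41180077, and its longest transcript has 8779 bases. CREBBP, with 10790 bases, lies on the minus strand of chromosome 16 from 3725054 to 3880713. KAT6A, KAT6B and KAT7 also have long transcripts of 9254, 8314 and 9514 bases, while KAT5 and KAT8 have 2237 and 2500. The GC content of the longest transcript ran from 40.9% in HAT1 and 41.2% in KAT2B to 57.9% in KAT5 and 59.9% in KAT2A. Exons of KAT5 overlap RNASEH2C and exons of KAT7 overlap FAM117A, each on the opposite strand. Whether counting used the strand is not given in the sources used here, so reads of these pairs may be shared.

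KAT2A and KAT2B encode close paralogues, and their RNA moved in opposite directions after pyruvate on the authors' scaling. With a smooth trend on transcript length and GC content removed from each library both were above 0 and neither passed (log2 fold change 0.12 for KAT2A and 0.47 for KAT2B, adjusted p = 0.35 and 0.20, limma). The median of all genes was then 0.20, above the value of KAT2A, and it was -0.01 on the authors' scaling. The bases before the RefSeq transcription start (GRCh38.p14) are shown for KAT2A, KAT2B and EP300 so that their starting regions can be compared. Capitals mark matches, on either strand, to GGGCGG (the GC box), CCAAT or TGACG (a half-site of the cAMP response element).
KAT2A: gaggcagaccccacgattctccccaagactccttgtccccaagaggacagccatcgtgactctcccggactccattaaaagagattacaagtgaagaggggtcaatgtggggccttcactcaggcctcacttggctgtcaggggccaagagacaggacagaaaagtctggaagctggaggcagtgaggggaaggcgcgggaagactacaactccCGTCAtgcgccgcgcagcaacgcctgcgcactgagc
KAT2B: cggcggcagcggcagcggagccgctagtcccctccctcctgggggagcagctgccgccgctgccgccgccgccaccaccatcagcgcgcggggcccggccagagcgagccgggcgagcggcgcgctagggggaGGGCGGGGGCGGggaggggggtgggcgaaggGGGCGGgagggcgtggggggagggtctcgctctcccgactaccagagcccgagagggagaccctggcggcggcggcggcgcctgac
EP300: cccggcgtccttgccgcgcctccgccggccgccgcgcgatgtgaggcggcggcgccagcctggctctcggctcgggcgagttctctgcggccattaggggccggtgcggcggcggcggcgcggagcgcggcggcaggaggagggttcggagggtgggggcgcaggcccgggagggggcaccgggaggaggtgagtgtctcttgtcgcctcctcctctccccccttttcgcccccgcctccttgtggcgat

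These stretches are chr17:42121368-42121617 on the minus strand for KAT2A, chr3:20040196-20040445 on the plus strand for KAT2B and chr22:41092342-41092591 on the plus strand for EP300. The KAT2B stretch was 80.8% G or C and held 3 GC boxes, and the KAT2A stretch was 58.8% G or C and held 1 CRE half-site and no GC box. The EP300 stretch was 76.8% G or C and held none of the 3 motifs. Of 34943 RefSeq promoters of 250 bases, 42.5% held a GC box, 32.0% CCAAT and 21.2% TGACG, and their median GC content was 58%. The matches are letters in these windows and do not show that a factor binds there.

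Per kilobase of the longest transcript, EP300 was the most abundant member in Control2, at 521 and 527 normalised reads per kb. CREBBP followed at 427 and 396 and HAT1 at 486 and 322, whose ranges overlap. KAT8, KAT2A and KAT6A, at 310 to 374, 321 to 328 and 298 to 337 per kb, did not differ beyond their spread, and neither did KAT6B (209 and 288) and KAT7 (227 and 232). KAT5 (186 and 170) and KAT2B (151 and 158) were the lowest. In Control6 the order was different. KAT2A (290 and 298 per kb) and KAT8 (264 and 251) were highest, EP300 stood at 114 and 94.1, and HAT1, KAT6A, KAT6B and KAT2B lay between 8.46 and 29.1. The tables were normalised separately, so these levels are not compared between experiments by a test.

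After A485, KAT2B was the only member that passed the test. KAT2B had 665 and 699 normalised reads in Control2 and 2084 and 1846 after A485. It was 2.88-fold higher (log2 fold change 1.52 ± 0.19 (SE), adjusted p = 0.0073, limma with Benjamini-Hochberg adjustment over all 16084 genes tested). Of all genes tested, 4.43% passed as higher and 8.21% as lower, and 1 of 10 members passed as higher and 0 as lower. With either A485 library left out the fold change of KAT2B stayed near its value but the call ended (log2 fold change 1.44, adjusted p = 0.11, without replicate 1, and 1.61, adjusted p = 0.086, without replicate 2).

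The 2 enzymes that A485 inhibits showed no RNA change past the spread of their libraries. EP300 had 4569.6 and 4628 normalised reads in Control2 against 4105 and 6943 after A485. The A485 libraries lay on both sides of the controls, and the log2 fold change was 0.22 with a 95% interval from -0.43 to 0.87 (adjusted p = 0.63, limma). CREBBP had 4604 and 4268 in Control2 and 3919.9 and 5482 after A485. Its A485 libraries too lay on both sides of the controls, with an interval from -0.45 to 0.57. With 2 libraries a group, a change of either gene anywhere within its interval remains possible. These unadjusted intervals are not limits of detection. Over 11575 genes, the difference of A485 replicate 2 from replicate 1 rose with transcript length (Spearman rho 0.26).

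KAT2A, the paralogue of KAT2B, had 1022 and 999.97 normalised reads in Control2 and 1169 and 1148 after A485. The groups did not overlap, and the log2 fold change was 0.20 (95% interval from -0.24 to 0.64, adjusted p = 0.51, limma). HAT1 went from 1868 and 1237 to 2595 and 1904, KAT8 from 935 and 776 to 1208 and 1044, and KAT5 from 415 and 381 to 439.9 and 549.6. In these 3 genes too both A485 libraries lay above both controls, yet none passed (adjusted p from 0.23 to 0.46, limma). Both A485 libraries were above both controls in 30.4% of all genes tested.

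KAT6A, KAT6B and KAT7 were close to their controls after A485. KAT6A had 2759 and 3122 in Control2 and 2385 and 3449 after A485, KAT6B 1736 and 2394 against 1740.4 and 2261, and KAT7 2162 and 2208 against 2119.7 and 2433. Their log2 fold changes lay between -0.04 and 0.06, and those of KAT6A and KAT6B turned to 0.36 and 0.35, without passing, with libraries scaled to equal totals. Over all genes, that scaling moved the median to 0.40 (log2) after A485, -0.15 after MS-275 and 0.30 after pyruvate, from values within 0.01 of 0. Quantile normalisation moved it to 0.12, -0.03 and -0.17. The fold changes given here follow the size factors.

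**Figure D2:**
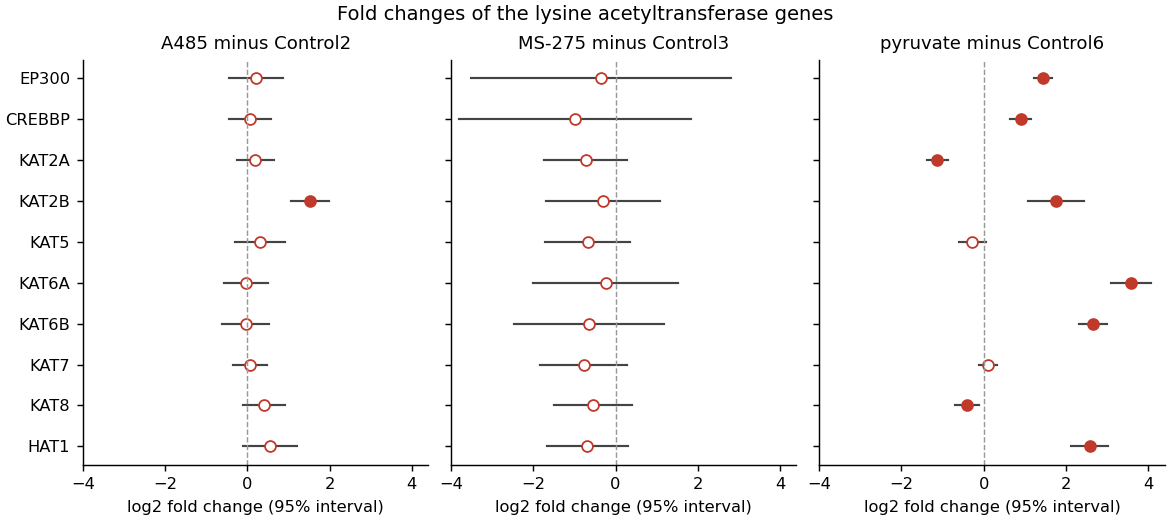
Log2 fold change of each gene against its own control (points) with the 95% interval from limma (lines), filled where the adjusted p was under 0.05. KAT2B is filled after A485, no gene is filled after MS-275, where the interval of EP300 runs from -3.53 to 2.80, and 8 genes are filled after pyruvate.

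After MS-275 no member passed the test, which had no term for the replicate number, and no gene of the 15883 tested did (0% called, limma), while 1730 genes had an unadjusted p under 0.05, with 0 members among them. On whole reads recovered from the values, edgeR called 0 genes and DESeq2 575, with 0 members among them. Within each replicate number all 10 members were lower after MS-275 than in Control3. In 40.4% of all genes tested the MS-275 library was lower within both numbers, and in 38.6% it was higher within both. The median log2 difference of the members was -0.54 within replicate 1 and -0.75 within replicate 2, beside -0.03 and 0 for all genes. All 10 were also lower within both numbers with libraries scaled to equal totals or quantile normalised, alternatives chosen after seeing the data. Of all genes, 50.4% were lower within both numbers with equal totals and 41.2% with quantile normalisation.

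CREBBP had the largest difference within replicate 1, with 4309 normalised reads in Control3 and 1937 after MS-275, a ratio of 0.45. Within replicate 2 it had 784 and 446, a ratio of 0.57. EP300 differed less from its control, with 3912 against 2887 (ratio 0.74) and 613 against 504 (ratio 0.82). In Control3 the level of EP300 in replicate 1 was 6.38 times that in replicate 2, and that of CREBBP 5.49 times, gaps wider than either treatment difference. Leaving out Control3 replicate 1 or MS-275 replicate 2 turned the sign of the pooled log2 fold change of both genes, which ranged from -1.70 to 0.98 for EP300 and from -2.21 to 0.25 for CREBBP over the 4 libraries left out in turn.

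The levels of KAT2A, KAT5, KAT7, KAT8 and HAT1 differed less between the replicate numbers. Among these genes the ratio of MS-275 to Control3 was least even in HAT1, at 0.83 within replicate 1 and 0.47 within replicate 2. KAT2A had 764 and 1122 in Control3 and 471 and 667 after MS-275, so that both treated libraries lay below both controls. KAT5 (400.2 and 615 against 273 and 351), KAT8 (811 and 977 against 503 and 732), KAT7 (1932 and 1329 against 1174 and 742) and HAT1 (1549 and 1666 against 1283 and 779) were separated in the same way. Both treated libraries were below both controls in 19.3% of all genes and in 5 of 10 members. The pooled log2 fold changes of these 5 genes ran from -0.78 in KAT7 to -0.55 in KAT8, with adjusted p from 0.62 to 0.71 (limma).

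KAT6A, KAT6B and KAT2B overlapped between the groups. KAT6A had 2859 and 1026 in Control3 and 2190.2 and 965 after MS-275, and KAT6B had 1975 and 809.5 against 1364 and 478. KAT2B, which passed as higher after A485, had 767 and 367 in Control3 and 567 and 323 after MS-275. Its A485 effect exceeded its MS-275 effect by 1.83 on the log2 scale (95% interval from 0.43 to 3.23, adjusted p = 0.17, limma contrast), which did not pass. None of the 10 members passed that test of the difference, beside 3.81% of the 15130 genes tested. This test had no term for the replicate number.

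**Figure D3:**
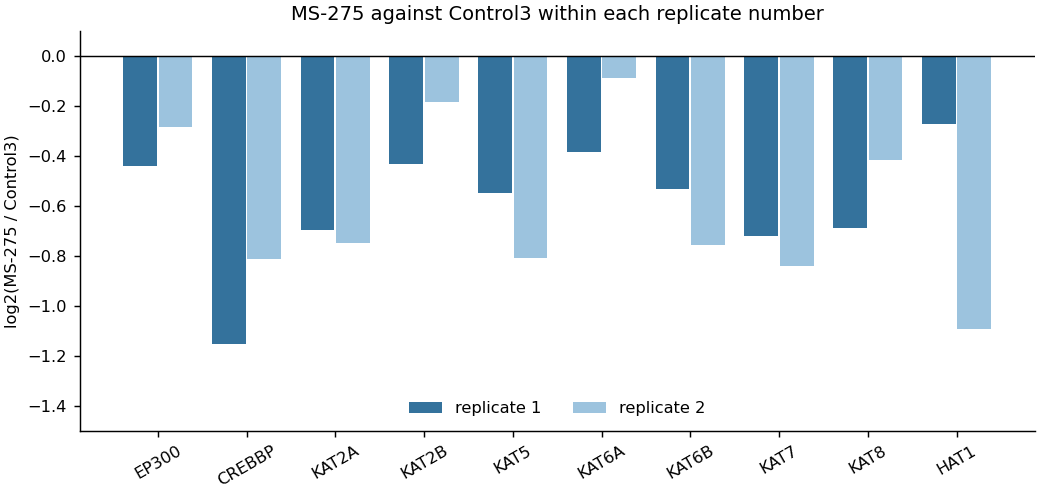
Log2 ratio of the MS-275 to the Control3 library within replicate 1 (dark bars) and within replicate 2 (light bars) for each gene. All 20 bars lie below 0, from -0.09 in KAT6A to -1.15 in CREBBP.

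Pyruvate gave the widest changes. Against Control6, 6 members rose (KAT6A, KAT6B, HAT1, KAT2B, EP300 and CREBBP), 2 fell (KAT2A and KAT8) and 2 did not pass (KAT5 and KAT7). Of all 12013 genes tested, 40.6% passed as higher and 40.2% as lower, so that passing was the common state of a gene in this experiment. The median log2 fold change of the members was 1.17, beside -0.01 for all genes.

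KAT6A and KAT6B, catalytic subunits of BRPF complexes, had the largest rises among the members. KAT6A had 198 and 109.6 normalised reads in Control6 and 1789 and 1748 after pyruvate, 11.9-fold higher (log2 fold change 3.57 ± 0.22 (SE), adjusted p = 4.2e-08, limma). KAT6B went from 119.8 and 116 to 716 and 786, 6.31-fold higher (adjusted p = 3.0e-08, limma). HAT1, the enzyme for new histone H4, went from 112 and 84.6 to 643 and 532, 5.96-fold higher (adjusted p = 2.9e-07, limma). In each of them every pyruvate library was well above every control.

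EP300 had 1004 and 826 in Control6 and 2480.3 and 2492 after pyruvate, 2.73-fold higher (log2 fold change 1.45 ± 0.10 (SE), adjusted p = 1.2e-07, limma). CREBBP rose less, from 1572 and 1207 to 2467 and 2683, 1.87-fold (adjusted p = 2.0e-05, limma). KAT2B stood at a low level, with 37.3 and 39.1 normalised reads in Control6 and 131.7 and 131.2 after pyruvate, 3.38-fold higher (adjusted p = 0.00026, limma). In a fit of all 12 libraries, which share 1 estimate of the spread, the calls of EP300, CREBBP and KAT8 ended (adjusted p = 0.18, 0.33 and 0.17, limma), and 60.7% of all genes passed. Their log2 fold changes stayed the same, while the SE went from 0.10 to 0.88, from 0.12 to 0.77 and from 0.13 to 0.25. The shared spread takes in the gap between the replicate numbers of the MS-275 experiment.

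KAT2A fell from 904 and 928 to 412 and 425, 2.19-fold lower (log2 fold change -1.13 ± 0.11 (SE), adjusted p = 2.4e-06, limma). KAT8, which acetylates lysine 16 of histone H4, fell from 659 and 628 to 532 and 441, 1.33-fold lower (adjusted p = 0.013, limma). It works within the MSL and NSL complexes. KAT5 had 440.0 and 394 against 365 and 321 (adjusted p = 0.099), and KAT7 had 1164 and 1044 against 1172 and 1197 (adjusted p = 0.33), both by limma. The interval of KAT7 ran from -0.11 to 0.31 on the log2 scale. KAT7 passed as higher with libraries scaled to equal totals (0.41, adjusted p = 0.0017, limma). KAT5 passed as lower with quantile normalisation (-0.77, adjusted p = 0.00079) and without Control6 replicate 2 (-0.36, adjusted p = 0.043), both by limma. Without pyruvate replicate 2 the call of KAT8 ended (log2 fold change -0.27, adjusted p = 0.17, limma), and with libraries scaled to equal totals its log2 fold change was -0.10 (adjusted p = 0.50, limma).

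The pyruvate fold changes followed the GC content of transcripts. Spearman's rho between them, over 9819 genes, was -0.73 within replicate 1 and -0.71 within replicate 2. Among 10 bins of genes by GC content, the median log2 fold change was 1.72 in the lowest bin and -1.18 in the highest. Among the members, HAT1, KAT2B, KAT6A and KAT6B, at 40.9% to 45.4%, rose and KAT2A, at 59.9%, fell, while CREBBP rose at 55.8%. With a smooth trend on transcript length and GC content removed from each library, EP300 (1.62), CREBBP (1.51), KAT6A (2.84), KAT6B (1.93) and HAT1 (1.32) still passed as higher on the log2 scale, and 67.5% of all genes passed in either direction. This removal moved the median of all genes to 0.20, from -0.01. KAT2B (0.47, adjusted p = 0.20) and KAT2A (0.12, adjusted p = 0.35) no longer passed by limma. KAT8 turned to 0.59 and KAT5 to 0.97, both passing as higher, and KAT7 turned to -0.52 and passed as lower. The part of base composition in these results was not tested beyond this. The proliferation genes moved too. All 14 in the list, such as those of the replication and mitosis machinery, passed as higher after pyruvate, and their summed share of a library went from 0.0244% and 0.0253% to 0.133% and 0.136%. Their part in the result was not tested, and in bulk RNA a change in the number of cells of a kind and a change in RNA per cell cannot be told apart.

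**Figure D4:**
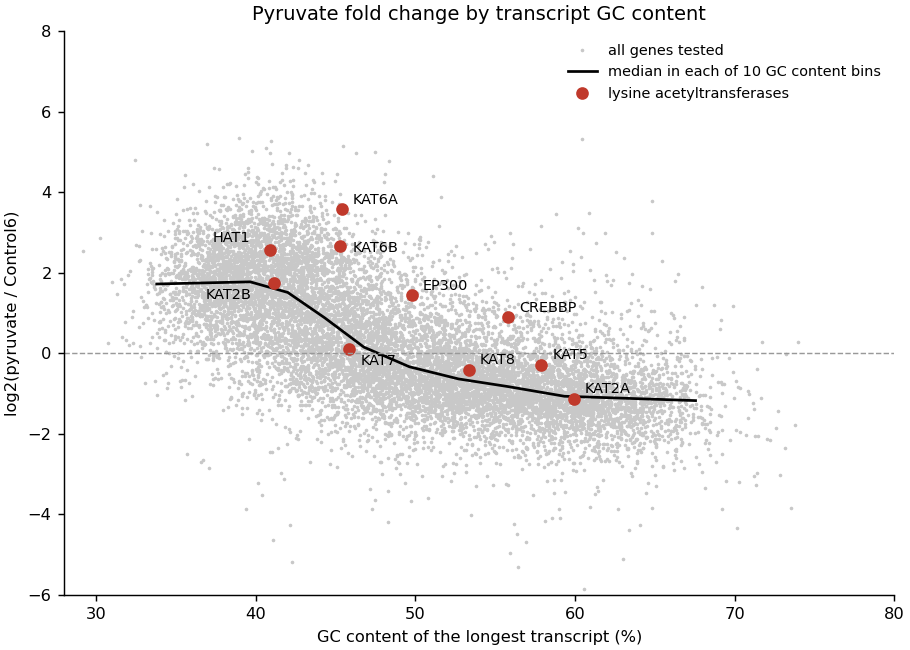
Log2 fold change after pyruvate against the GC content (%) of the longest transcript for all genes tested (grey points), with the median in each of 10 bins of GC content (black line) and the 10 lysine acetyltransferases (red points). KAT2A and KAT2B lie near the line, while KAT6A, KAT6B, HAT1, EP300, CREBBP and KAT5 lie above it.

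The pyruvate effect was compared directly with the others. Against the A485 effect, 7 of 10 members differed, beside 65.4% of all genes tested. The median difference of all genes was 0.30 on the log2 scale. It was 0.31 with the length and GC trend removed, where 53.6% of all genes passed, and -0.02 with quantile normalisation, where 64% did. KAT6A differed most, by 3.61 on the log2 scale (95% interval from 2.71 to 4.51, adjusted p = 9.6e-05, limma contrast). EP300 differed by 1.23 (interval from 0.51 to 1.96) and KAT2A by -1.32 (interval from -1.75 to -0.90). With the length and GC trend removed the calls of KAT2A (-0.081, adjusted p = 0.72), HAT1 (0.87, adjusted p = 0.059) and KAT8 (0.17, adjusted p = 0.56) ended by limma. KAT2B, which rose in both experiments, differed by 0.23 with an interval from -0.39 to 0.86, and KAT5 and KAT7 did not pass either. With the trend removed KAT2B (-0.99, adjusted p = 0.014) and KAT7 (-0.76, adjusted p = 0.0028) turned and passed by limma, and KAT5 passed with quantile normalisation (-1.15, adjusted p = 0.0072, limma).

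Against the MS-275 effect, 4 of 10 members differed (KAT6A, KAT6B, HAT1 and KAT2B), beside 41.1% of all genes. The test had no term for the replicate number. The median difference of all genes was 0.11 on the log2 scale. It was 0.56 with equal totals, where 42.2% of all genes passed. With the length and GC trend removed it was 0.25 (36.8% passed), and with quantile normalisation -0.06 (37.3%). HAT1 differed by 3.26 (interval from 2.24 to 4.27, adjusted p = 0.0021, limma contrast), and EP300 by 1.81 with an interval from -1.63 to 5.25. KAT2B did not pass with quantile normalisation (1.47, adjusted p = 0.072) or with the length and GC trend removed (0.73, adjusted p = 0.24), both by limma. With that trend removed KAT2A (0.82, adjusted p = 0.020), KAT5 (1.64, adjusted p = 0.0041) and KAT8 (1.15, adjusted p = 0.010) passed by limma, and with equal totals KAT7 did (1.336, adjusted p = 0.039, limma). The calls against MS-275 and A485 also changed with a library left out. Against MS-275, KAT6B and KAT2B no longer passed without any 1 library of the pyruvate experiment, KAT2B also without Control3 replicate 1 or MS-275 replicate 2, and KAT6A without Control6 replicate 2 (highest adjusted p of 0.067, 0.10 and 0.053, limma). Against A485, CREBBP and KAT8 no longer passed without A485 replicate 1 or pyruvate replicate 2, CREBBP also without Control6 replicate 2 and KAT8 without Control6 replicate 1 (highest adjusted p of 0.086 and 0.081, limma).

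EP300 and CREBBP can also be read against each other within a library, where the size factor does not enter, although base composition may. The ratio of EP300 to CREBBP was 0.993 and 1.08 in Control2 and 1.05 and 1.27 after A485. It was 0.908 and 0.782 in Control3 and 1.49 and 1.13 after MS-275, and 0.638 and 0.684 in Control6 and 1.01 and 0.929 after pyruvate. The treated ratio was above the control ratio within each replicate number of all 3 experiments, and the groups overlapped after A485 alone. Their longest transcripts are 49.8% and 55.8% G or C, and with the length and GC trend removed the log2 fold changes after pyruvate were 1.62 for EP300 and 1.51 for CREBBP, beside 1.45 and 0.90 without. This ratio was chosen after its values were seen and was not tested.

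The genes most like EP300 were found by the root mean square difference of log2 values over the 12 libraries, after each experiment's own mean was subtracted, among 9768 other genes. They were SCAF11 (0.16), HOOK3 (0.18), THOC2 (0.19), NIN (0.20) and RNF6 (0.21), beside a median of 1.01 over all genes. CREBBP (0.27) ranked 33rd, KAT6B (0.52) 486th and KAT2A (1.19) 7077th. The 5 nearest genes all shared with EP300 the low replicate 2 libraries of the MS-275 experiment, for example 5398 and 1132 normalised reads of SCAF11 in Control3, and a rise after pyruvate, from 164 and 163 to 446 and 429. Their likeness thus includes the difference between replicates.

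Partners and relatives of the members were described by lists of genes. After A485 few of them passed. Among 16 tested genes of other acetyltransferases 0 passed, and 0 did among 17 subunits of the KAT5 complex NuA4, 11 subunits of the KAT8 complexes, 5 partners of HAT1 and 19 readers of acetylated lysine. Of 23 SAGA and ATAC subunits, in which KAT2A and KAT2B work, SUPT7L rose (log2 fold change 0.78, adjusted p = 0.034, limma). Of the 9 BRPF, JADE and ING scaffolds, ING4 rose (0.94, adjusted p = 0.049, limma).

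Of 21 partners and regulators of p300 and CBP, 1 rose and 4 fell after A485, beside 4.43% and 8.21% of all genes. The fall of ANP32B did not pass with equal totals (adjusted p = 0.10) or quantile normalisation (adjusted p = 0.078), both by limma. EID2, an inhibitor of p300, went from 863 and 939 to 2043 and 1778 (log2 fold change 1.08, adjusted p = 0.020, limma). EPAS1, the hypoxia-inducible factor that recruits p300 and CBP, had 26944 and 63371 in Control2 and 3891 and 10190.5 after A485 (log2 fold change -2.71, adjusted p = 0.032, limma). Among 12 genes of acetyl-CoA supply, SLC33A1, the acetyl-CoA transporter, rose (1.004, adjusted p = 0.026), and ACLY, which makes acetyl-CoA from citrate, fell (-0.92, adjusted p = 0.038), both by limma. ACLY did not pass with libraries scaled to equal totals (-0.53, adjusted p = 0.10, limma). Of the 10 fibroblast markers 9 fell after A485, and the summed share of all 10 went from 3.17% and 3.19% of a library to 1.29% and 1.39%. Of the 14 proliferation genes 13 were below 0 after A485 with a median log2 fold change of -0.85, and 0 passed. Their summed share was 0.165% and 0.0525% in Control2 and 0.0961% and 0.0639% after A485. The part of both lists in the results was not tested.

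After MS-275 no list held a gene that passed. The median log2 fold changes were -0.59 for the KAT8 complexes, with 11 of 11 genes below 0, -0.54 for the BRPF, JADE and ING scaffolds, with 9 of 9, and -0.44 for SAGA and ATAC, with 21 of 22, beside -0.01 for all genes. The partners of HAT1 had a median of -0.70, with 4 of 5 below 0. Medians closer to that of all genes were those of the readers of acetylated lysine (-0.36, 12 of 19 below 0), other acetyltransferases (-0.30, 11 of 16), NuA4 (-0.24, 14 of 17), partners of p300 and CBP (-0.15, 12 of 20) and acetyl-CoA supply (-0.07, 7 of 12). The proliferation genes had a median of -1.96, with 14 of 14 below 0, and their part in the result was not tested.

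After pyruvate most list genes passed, as most genes did (40.6% as higher and 40.2% as lower). Of 15 other acetyltransferases 8 rose and 4 fell. ESCO1, which acetylates cohesin, rose most (from 31.4 and 3.26 to 86.5 and 116, log2 fold change 3.11, adjusted p = 0.0032, limma), although a level of so few reads varied widely between the controls. NAA40 fell most (-1.28). Of 22 SAGA and ATAC subunits 12 rose, led by ZZZ3 (2.40), and 5 fell, led by TADA2B (-0.71). In NuA4, 9 of 15 rose, led by EPC1 (4.20), and 5 fell, led by MRGBP (-1.10).

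Of the 9 scaffolds of KAT6A, KAT6B and KAT7, 3 rose, led by JADE3 (2.08), and 4 fell, led by JADE2 (-1.69). MSL2, the ubiquitin ligase of the MSL complex of KAT8, rose from 52.1 and 77.0 to 719.6 and 722 (3.49), and KANSL3 fell (-0.83), among 4 of 11 that rose and 5 that fell. All 5 tested partners of HAT1 rose, led by the histone chaperone ASF1A (1.99). Of 17 readers of acetylated lysine 12 rose, led by ATAD2 (3.36), and 2 fell, led by BAZ2A (-0.75). The partners of p300 were split, with 9 of 20 up, led by SET (2.66), and 8 down, led by CITED4 (-3.84), which had 90.4 and 62.9 normalised reads in Control6 and 27.5 and 0 after pyruvate. Acetyl-CoA genes were split as well, with 5 of 11 up, led by DLD (2.09), and 6 down, led by CRAT (-1.81). With the length and GC trend removed, TADA2B (0.05), MRGBP (-0.05), ESCO1 (1.62) and CITED4 (-2.004) no longer passed. The named rises were all smaller then, from 3.05 in MSL2 to 0.73 in DLD, with ASF1A at 0.85. No named fall was as deep as before.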

How the data were processed

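Reads were trimmed by the authors with Trim Galore (version 0.6.10), aligned with HISAT2 (version 2.2.1), counted per gene with featureCounts (version 2.0.6) and normalised with DESeq2 (version 1.34.0), per the submitters' processing notes. Each deposited value is a signal: the reads counted for a gene, scaled by the size factor of its library. The tables cover 16683 genes for A485, 16417 for MS-275 and 12013 for pyruvate. The gene annotation and strand setting used for counting are not given in the sources used here. Muscle libraries were not used here.

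Values were taken as log2(value + 1), which understates the change of low genes. Where the 4 libraries of a comparison averaged 10 or more, the gene entered the test with limma (version 3.58.1, eBayes with an intensity trend, two-sided, R version 4.3.3), with Benjamini-Hochberg adjustment over all genes tested. A gene passed at an adjusted p under 0.05. Differences between 2 effects were limma contrasts over 8 libraries. Whole reads were recovered from all 3 tables (100% of values within 0.01 of a whole number) and tested with edgeR (version 4.0.16) and DESeq2 (version 1.42.0). Replicate libraries differed by more than sampling noise in every group (chi-square per gene from 4.54 to 458), and all were kept.

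The members and gene lists were chosen with earlier results of these data known. Text names all members, the gene of each partner list with the largest rise and fall among those that passed, and the 5 genes nearest EP300 whose mean reached 100 in each experiment. Lengths and GC content came from GENCODE (hg38), and promoter bases from RefSeq, which held usable entries for 6 members. Alternatives changed the filter to none or to a mean of 50, the pseudocount to 0.1 or 10, the scaling, the eBayes trend, and added a length and GC trend, the replicate number as a block, each library left out (the lone library then being assumed to vary like the other group), a fit of all 12 libraries and the read tests. Figures were drawn with matplotlib (version 3.10.9).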

Additional observations from a re-analysis of the deposited data

How the results depend on the processing

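Precision was limited by 2 libraries a group. Without any 1 of its 4 libraries, 0 to 1 member passed after A485. Of the 1110 other values recomputed for single members, 966 kept direction and side of the threshold, 62 changed sign, 60 passed anew and 36 no longer passed, with 14 counted both as turned and as moved across the threshold. Read tests changed no member's call. Of all genes, limma, edgeR and DESeq2 called 2032, 2060 and 3433 after A485 and 0, 0 and 575 after MS-275, where the fit of 12 libraries called 573. The cause of the changes below was not tested.

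Same-numbered libraries deviated together after MS-275 (correlation of the replicate differences over genes 0.89) and A485 (0.39) but not after pyruvate (-0.03). No source says that the numbers pair samples, and with 2 pairs this stays a hint from the data. With the replicate number as a block, 8 members passed as lower after MS-275 (KAT2B and KAT6A did not), beside 39.3% of all genes, and 8 also with the length and GC trend removed. The A485 and MS-275 effects then differed in 8 members, beside 29.1% of all genes. They differed in 9 with both and in 1 with the trend alone, beside 6.85% of all genes with the trend alone. The pyruvate and MS-275 effects differed in 7 with the block, beside 74.5% of all genes, and in 8 with both. The share of all genes with both settings is not given here. In the fit of 12 libraries 5 members passed after pyruvate, beside 60.7% of all genes, and EP300, CREBBP and KAT8 did not. The block changed no other count by over 1.5 times.

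On the log2 scale, A485 values turned for KAT6A (0.36 with equal totals, 0.048 with quantile normalisation, 0.14 with the trend removed, with or without the block, 0.012 by edgeR) and KAT6B (0.35, 0.035 and 0.11). Pyruvate values turned with the trend removed, with or without the block, for KAT2A (0.12), KAT5 (0.97), KAT7 (-0.52) and KAT8 (0.59). With equal totals they turned for KAT5 (0.027). The median of all genes after pyruvate was 0.20 with the trend removed and 0.30 with equal totals. The difference of the pyruvate and A485 effects turned for KAT2B (-0.35 with quantile normalisation, -0.99 with the trend removed), KAT5 (0.64) and KAT8 (0.17) with the trend removed, and KAT7 (-0.035 with equal totals, -0.041 with quantile normalisation, -0.76 with the trend removed). That of pyruvate and MS-275 turned for KAT2A (0.048 with equal totals, 0.82 with the trend removed), and with quantile normalisation for KAT5 (-0.17) and KAT8 (-0.25). Over all genes the median difference of pyruvate and A485 was 0.21 with equal totals, 0.31 with the trend removed and -0.02 with quantile normalisation. For pyruvate and MS-275 the medians were 0.56, 0.25 and -0.06 in that order.

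Leaving out 1 library gave ranges that crossed 0 after A485 for EP300 (-0.16 to 0.59), CREBBP (-0.18 to 0.31), KAT6A (-0.30 to 0.23), KAT6B (-0.27 to 0.19) and KAT7 (-0.044 to 0.16), and after MS-275 for EP300 (-1.70 to 0.98), CREBBP (-2.21 to 0.25), KAT2B (-0.84 to 0.22), KAT6A (-0.98 to 0.50) and KAT6B (-1.40 to 0.11). The ranges of the difference of A485 and MS-275 crossed 0 for EP300 (-0.76 to 1.91), CREBBP (-0.18 to 2.28), KAT6A (-0.54 to 0.94) and KAT6B (-0.15 to 1.36), that of pyruvate and A485 for KAT7 (-0.052 to 0.15), and that of pyruvate and MS-275 for KAT8 (-0.13 to 0.41).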
